A study of Mus musculus with 10 samples.

Results

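The 41 genes described here code for nuclear receptors, the transcription factors that steroid, thyroid and retinoid hormones and other lipid ligands act through, and they include both estrogen receptors, Esr1 and Esr2. They were taken by gene symbol from a whole-lung RNA-Seq table, in which all 41 symbols were found among 35275 genes. The rule used symbols alone, with no threshold on expression. They were grouped by ligand and relationship into 8 steroid receptors with their estrogen-related relatives, 6 retinoid receptors, 5 receptors for thyroid hormone, vitamin D and the ROR group, 8 sensors of lipids, bile acids and foreign compounds, 7 orphan receptors of the NR2 group, and 7 members of the NR4, NR5, NR6 and NR0 groups.

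The study asked which lung genes change when 1 copy of Dll4, a ligand of Notch receptors made by endothelial cells, is lost. Dll4+/- pups carried a lacZ reporter in place of 1 Dll4 allele in every cell of the body, and Dll4+/+ pups carried both alleles intact. All pups were of the CD1 strain, from a line rederived from frozen sperm in which littermates served as controls, had no agent named in the labels, and were taken on postnatal day 6 (P6), when alveoli are forming. RNA of the whole lung was sequenced from 4 Dll4+/- and 4 Dll4+/+ pups, with 1 library a pup, and values are FPKM, fragments scaled to exon length and to the mapped fragments of the library. Because every cell type of the lung is mixed in such a library, fewer cells of a type and less RNA per cell cannot be told apart.

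The libraries held 17201662 to 22927840 fragments, recovered from the FPKM steps. Dll4 itself averaged 14.8 ± 4.36 FPKM in the Dll4+/- libraries, against 27.6 ± 4.12 FPKM in the Dll4+/+ libraries (n = 4 each, ± SD here and in all means that follow), without overlap. Dll4+/- 1, Dll4+/- 4 and Dll4+/+ 3 stood apart from the other libraries, with limma library weights of 0.128, 0.245 and 0.282 against 1.77 to 4.15 for the remaining 5. Summed markers of proliferating cells stood at 32.5 FPKM in Dll4+/- 1 and at 176 to 253 FPKM elsewhere, and summed alveolar type II markers at 39709 FPKM in Dll4+/- 4 and at 12707 to 27873 FPKM elsewhere. Dll4+/- 2 was labelled female but held 20.3 FPKM of the Y-linked gene Ddx3y and 0.273 FPKM of Xist, so its RNA goes against its label.

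Nuclear receptors bind DNA through a pair of zinc fingers and a ligand in a pocket at the other end of the protein. Ligand binding exchanges corepressors for coactivators, so that the same receptor can silence a gene without its hormone and switch it on with it. Steroid receptors bind as homodimers and wait for their hormone in complexes with HSP90 chaperones, whereas the retinoic acid, thyroid hormone, vitamin D, PPAR and liver X receptors bind DNA together with a retinoid X receptor. In the lung, glucocorticoids speed maturation before birth, retinoic acid acts in the formation of alveolar septa, and estrogen receptor beta is known from knockout mice to affect alveolar number.

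The members spanned the whole range from abundant to undetected transcripts. Of the 41, 21 reached 1 FPKM in at least 4 libraries, which was the filter for the test, 10 more reached 0.1 FPKM in at least 4 libraries, and 10 did not. Thra, the thyroid hormone receptor alpha, was the most abundant, with 74.1 ± 18.6 FPKM in Dll4+/- lungs, against 74.4 ± 10.5 FPKM in Dll4+/+ lungs. By Dll4+/+ mean it was followed by the liver X receptor beta gene Nr1h2, then by Rarg, Rxrb, Rxra and Rara, although Rara was above Rxra in Dll4+/- lungs, and these 6 genes together made up 67.0% of the summed FPKM of all members in Dll4+/- and 64.6% in Dll4+/+ lungs. At the other end, Nr2e1, which acts in neural stem cells, and Nr0b1, which acts in the adrenal gland and gonad, were listed at 0 in every library, while the 3 fragments that a count of 0 allows would be 0.0654 to 0.0872 FPKM for a transcript of 2000 bases. The 8 other members that did not reach 0.1 FPKM in 4 libraries were the xenobiotic sensors Nr1i2 and Nr1i3, the progesterone receptor Pgr, Nr5a1, Esrrb, Rorb, Nr2e3 and Hnf4a, with 0 to 15 fragments a library.

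**Figure D1:**
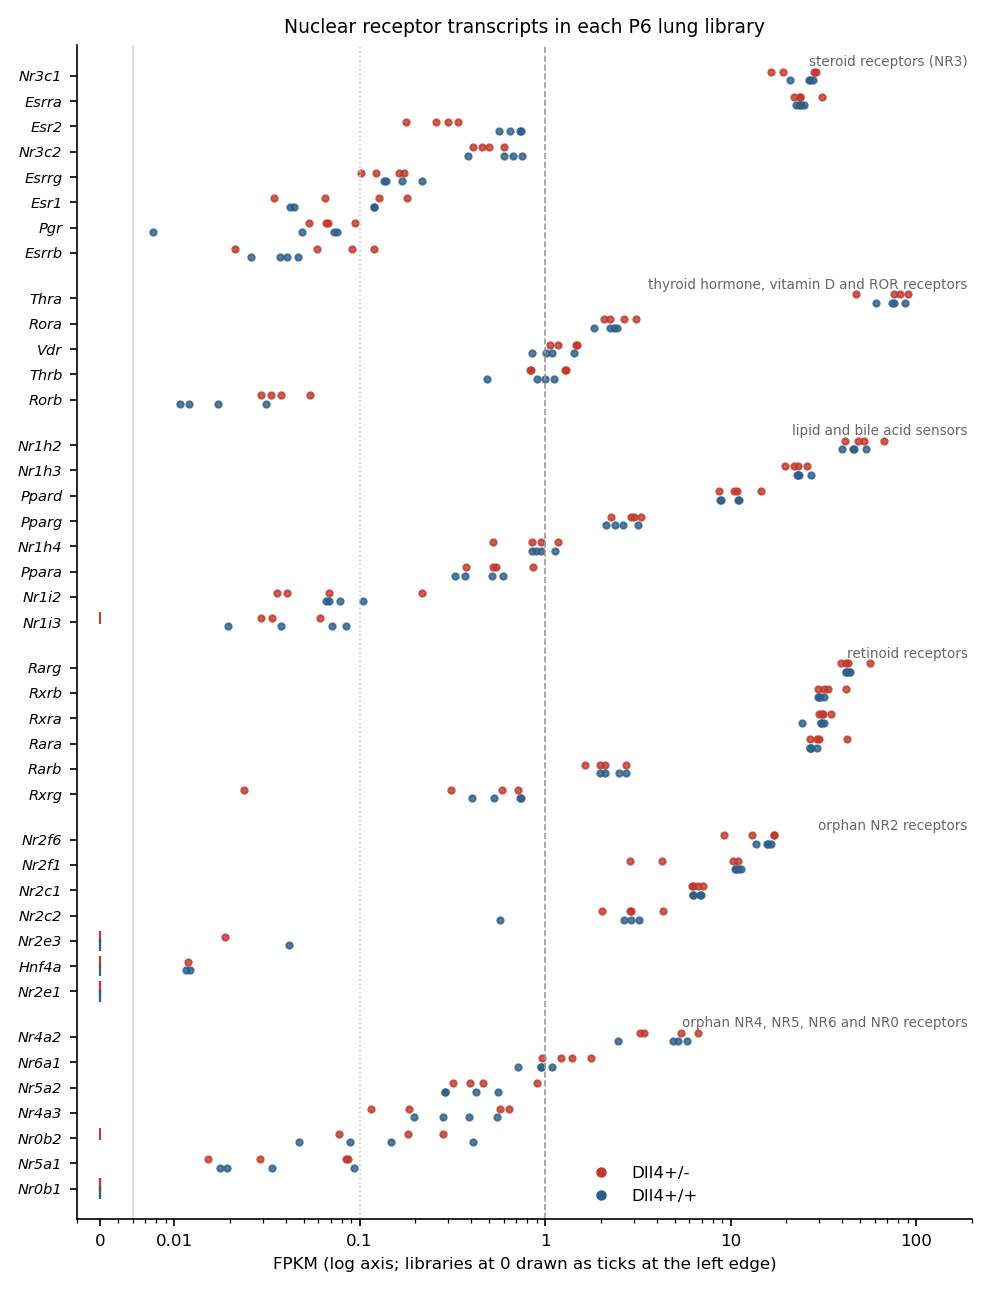
FPKM of each of the 41 receptor genes (rows, by group) in every library on a log axis, Dll4+/- in red above Dll4+/+ in blue; ticks at the left edge are libraries at 0, the dashed line is the test filter of 1 FPKM and the dotted line 0.1 FPKM. The genes run from Thra at 47.6 to 90.6 FPKM down to Nr2e1 and Nr0b1 at 0, and Esr2 is the row in which all red points lie left of all blue ones.

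No nuclear receptor gene passed the test between genotypes. With limma on log2(FPKM + 1) and Benjamini-Hochberg adjustment over all 13610 genes tested, 0 of the 21 tested members had an adjusted p below 0.05, and the background was 0% of all genes. Adjusted p-values of the members lay between 0.811 and 0.992. At an unadjusted p below 0.05, 0 of the 21 were counted, beside 3.36% of all genes. A voom fit on the recovered fragments also counted 0 members at either threshold. Fitted log2 fold changes were positive for 14 of the 21 and negative for 7, with a median of 0.12, beside a median of -0.02 over all genes, of which 6253 were positive and 7357 negative. The members' median was 0.049 without Dll4+/- 1 and 0.032 without Dll4+/+ 3. They ran from -0.71 (SE 0.34) for Nr2f1 to 0.34 (SE 0.31) for Nr2c2.

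**Figure D2:**
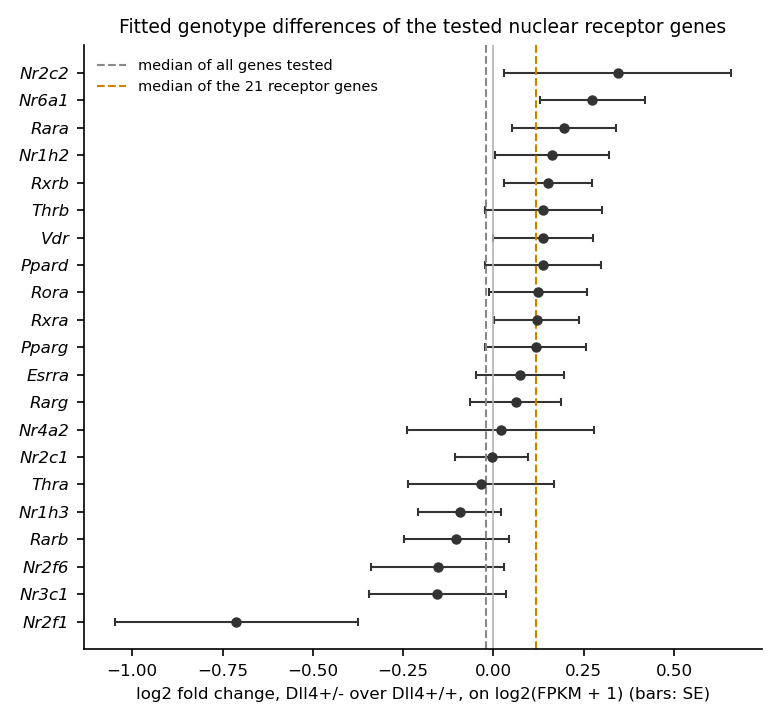
Fitted log2 fold change of Dll4+/- over Dll4+/+ lungs for the 21 tested receptor genes, on the log2(FPKM + 1) scale, with bars of 1 SE; dashed lines mark the median of these genes (0.12) and of all genes tested (-0.02). Nr2f1 at -0.71 and Nr2c2 at 0.34 are the extremes, and none of the 21 passed the test.

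Esr2, which codes for estrogen receptor beta, was the member whose libraries separated by genotype. Its values were 0.300, 0.177, 0.338 and 0.259 FPKM in Dll4+/- 1 to 4, against 0.567, 0.728, 0.744 and 0.644 FPKM in Dll4+/+ 3 to 6. Every Dll4+/- lung was below every Dll4+/+ lung, and the means of 0.269 ± 0.0689 and 0.671 ± 0.0819 FPKM (SD, n = 4 each) gave a ratio of 0.40. The two-sided exact permutation p was 0.0286, which is the smallest that 4 against 4 allows. It was not adjusted for the 39 members tested in this way. Among the 31 members past 0.1 FPKM, Esr2 alone had groups that did not overlap. This count of 1 is near the share over all 18467 genes at that filter, 3.08%. With fewer libraries groups separate more often, and the count was 4 without Dll4+/- 2 (beside 8.88% of all genes), with Rara, Nr2f1 and Nr6a1 added. It was 3 without Dll4+/+ 6 (beside 5.62%), with Nr6a1 and Nr3c2 added, and 2 without Dll4+/- 3 (beside 6.19%), with Rxrb added. The study reported Esr2 as decreased in this same RNA-Seq and took it on to qRT-PCR, so its choice was not independent of these data. That qRT-PCR used other lungs, at other postnatal ages, and the study reported a progressive decrease of Esr2 in Dll4+/- mice.

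The Esr2 values rest on few reads. The FPKM steps corresponded to 20, 13, 22 and 20 fragments in Dll4+/- 1 to 4, against 34, 46, 43 and 43 fragments in Dll4+/+ 3 to 6. The 95% Poisson intervals, which cover counting error only, ran from 0.0942 to 0.302 FPKM in the lowest Dll4+/- library and from 0.538 FPKM upwards in the highest Dll4+/+ library. For the closest pair, Dll4+/- 3 and Dll4+/+ 3, they overlapped, with an upper bound of 0.511 and a lower bound of 0.393 FPKM. Dll4+/- 3 also overlapped Dll4+/+ 6, with a lower bound of 0.466 FPKM. Dll4+/- 1 and Dll4+/- 4, with upper bounds of 0.463 and 0.401 FPKM, overlapped Dll4+/+ 3. In the limma fit with the filter of 0.1 FPKM, Esr2 had a log2 fold change of -0.40 (SE 0.08) on log2(FPKM + 1) and ranked 17 of 18467 genes by p, with an adjusted p of 0.839. It was the 1 member of 31 with an unadjusted p below 0.05 there, a count near the share of 3.8% over all genes. On recovered fragments with voom, which does not damp low values, the log2 fold change was -1.34 (SE 0.29) with an adjusted p of 0.837.

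**Figure D3:**
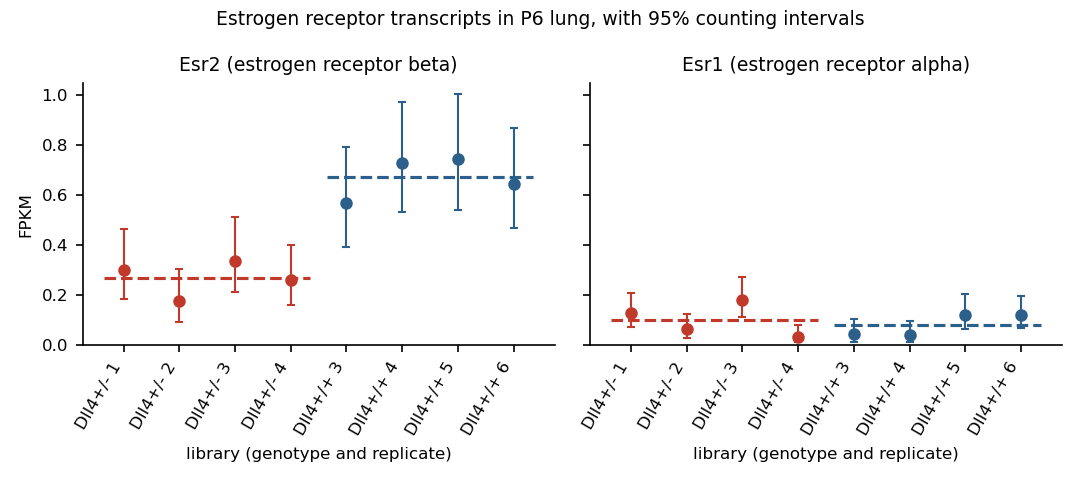
FPKM of Esr2 (left) and Esr1 (right) in each library, Dll4+/- in red and Dll4+/+ in blue; error bars are 95% Poisson intervals of the recovered fragments and dashed lines are group means. The 4 Dll4+/- libraries lie between 0.177 and 0.338 FPKM of Esr2 and the 4 Dll4+/+ libraries between 0.567 and 0.744 FPKM, whereas the Esr1 values of both genotypes overlap below 0.2 FPKM.

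The difference of the Esr2 means was -0.402 FPKM over all 8 libraries, -0.437 to -0.372 FPKM when single libraries were left out, and -0.413 FPKM without both Dll4+/- 1 and Dll4+/- 4. Within labelled sex, the female-labelled values were 0.177 and 0.338 FPKM in Dll4+/- against 0.728 and 0.744 FPKM in Dll4+/+ lungs. The value of 0.177 FPKM was that of Dll4+/- 2, whose RNA goes against its label. The male-labelled values were 0.300 and 0.259 FPKM in Dll4+/- against 0.567 and 0.644 FPKM in Dll4+/+ lungs. None of 15 summed lists of cell type and tissue markers separated the genotypes. The endothelial sum ran from 526 to 1071 FPKM in Dll4+/- and from 912 to 1042 FPKM in Dll4+/+ lungs and the summed adrenal and gonad markers from 1.96 to 2.41 FPKM in Dll4+/- and from 1.49 to 2.44 FPKM in Dll4+/+ lungs.

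Esr2 (ENSMUSG00000021055) lies on the minus strand of chromosome 12, between 76120419 and 76177259 in GRCm38. The 250 bases before its RefSeq start are printed because Esr2 was the member with separate groups. Capitals mark GGTCA, the core of an estrogen response element, which both strands were searched for and which occurs 2 times in this window and in 35.2% of 32851 RefSeq windows of the same length.
Esr2 promoter, chr12:76177260-76177509, minus strand, RefSeq on GRCm38.p6: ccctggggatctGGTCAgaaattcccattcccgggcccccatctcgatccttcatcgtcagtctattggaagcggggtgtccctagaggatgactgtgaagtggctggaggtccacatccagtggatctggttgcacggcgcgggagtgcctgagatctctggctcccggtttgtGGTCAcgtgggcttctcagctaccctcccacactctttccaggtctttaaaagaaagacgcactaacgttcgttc
The whole estrogen response element, GGTCA and its inverted repeat TGACC with 3 bases between them, was not in this window. Nor was GTGGGAA, 1 form of the site of the Notch effector RBPJ, which 5.42% of all windows held. Other forms of the RBPJ site were not searched for. GGTCA was in at least 1 window of 20 of the 38 members with a RefSeq window and of 38.4% of all genes. These are matches of letters only.

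Esr1, which codes for estrogen receptor alpha, was lower than Esr2 in every library. It measured 0.127, 0.0649, 0.179 and 0.0344 FPKM in Dll4+/- 1 to 4, against 0.0442, 0.0420, 0.119 and 0.119 FPKM in Dll4+/+ 3 to 6, from 5 to 22 fragments. The groups overlapped fully, and the exact p was 0.60. Esr2 made up 74.2 ± 9.90% of the summed FPKM of both estrogen receptors in Dll4+/- and 89.5 ± 4.94% in Dll4+/+ lungs (SD, n = 4 each, exact permutation p = 0.0857 among 15 shares tested). After Benjamini-Hochberg adjustment over the 15 shares, this exact p was 0.5. Dll4+/- 4, in which Esr1 was at its lowest, had an Esr2 share of 88.3%, within the Dll4+/+ range of 84.4 to 94.5%. Without that library the exact p was 0.0286, the smallest possible. It was 0.0857 to 0.114 when any other single library was left out.

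Among the other steroid receptors, Nr3c1, the glucocorticoid receptor, was the most abundant, with 16.5, 28.9, 28.3 and 19.2 FPKM in Dll4+/- 1 to 4, against 20.9, 26.7, 27.6 and 26.4 FPKM in Dll4+/+ 3 to 6. The 3 lowest values were those of the 3 libraries that stood apart, and the log2 fold change was -0.16 (SE 0.19). The Dll4+/- libraries that did not stand apart, at 28.9 and 28.3 FPKM, were above every Dll4+/+ library, and 16.5% of all genes past 0.1 FPKM were likewise separate between these 2 libraries and the 4 Dll4+/+ libraries. Nr3c2, the mineralocorticoid receptor, averaged 0.492 ± 0.0823 FPKM in Dll4+/- lungs, against 0.601 ± 0.157 FPKM in Dll4+/+ lungs. Pgr, the progesterone receptor and a classical estrogen target, was counted from 1 to 15 fragments a library. Of the estrogen-related receptors, which bind similar DNA without estrogen and control mitochondrial genes, Esrra held 99.2% of the summed FPKM in Dll4+/- and 99.1% in Dll4+/+ lungs, with a log2 fold change of 0.07 (SE 0.12), while Esrrb and Esrrg stayed at or below 0.216 FPKM.

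Retinoid receptors were the group with the highest summed level, 146 FPKM in Dll4+/- lungs, against 133 FPKM in Dll4+/+ lungs. Rara, a retinoic acid receptor, had 42.3, 26.8, 29.8 and 29.2 FPKM in Dll4+/- 1 to 4, against 26.6, 27.0, 29.2 and 26.9 FPKM in Dll4+/+ 3 to 6. Rarg, the more abundant retinoic acid receptor, had 56.6, 41.7, 39.3 and 43.1 FPKM in Dll4+/- against 41.9, 44.1, 41.7 and 43.5 FPKM in Dll4+/+ lungs. In both, Dll4+/- 1 was the high library and the other Dll4+/- libraries lay near the Dll4+/+ range.

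The same held for the obligate partners of these receptors. Rxrb had 41.9, 31.9, 29.5 and 33.4 FPKM in Dll4+/- 1 to 4, against 31.8, 30.5, 30.0 and 29.5 FPKM in Dll4+/+ 3 to 6, and Rxra had 35, 30.9, 29.8 and 31.5 FPKM in Dll4+/-, against 24.2, 30.7, 30.6 and 31.7 FPKM in Dll4+/+ lungs. Of the Dll4+/+ libraries, Dll4+/+ 3 was low for Rxra. The log2 fold changes of 0.15 (SE 0.12) for Rxrb and 0.12 (SE 0.12) for Rxra did not pass the test. Rxrg, the partner found mostly in muscle and nerve cells, was at 1 fragment in Dll4+/- 1 and at 15 to 33 fragments elsewhere.

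Rarb, itself a target of retinoic acid, stayed low, with 2.11 ± 0.446 FPKM in Dll4+/- lungs, against 2.33 ± 0.356 FPKM in Dll4+/+ lungs. Its promoter is printed because it holds, in mouse as in other mammals, the classical retinoic acid response element through which members of this list act on another member. Capitals mark GTTCA and its direct repeat with 6 bases between them, a pair which was searched on both strands and found in 0.0670% of the 32851 windows, and in no other member.
Rarb promoter, chr14:16575477-16575726, minus strand, RefSeq on GRCm38.p6: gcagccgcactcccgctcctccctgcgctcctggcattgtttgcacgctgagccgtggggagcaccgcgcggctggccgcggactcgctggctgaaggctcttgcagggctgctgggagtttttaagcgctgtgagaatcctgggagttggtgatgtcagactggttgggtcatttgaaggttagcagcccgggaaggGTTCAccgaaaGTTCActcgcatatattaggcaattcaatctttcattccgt
On the annotation, 34.1% of the exon bases of Rarb also belong to Top2b on the opposite strand, and reads of such pairs can be told apart only where the counting used strand, on which the sources say nothing.

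Of the receptors for thyroid hormone and vitamin D, Thra had 90.6, 76.3, 81.9 and 47.6 FPKM in Dll4+/- 1 to 4, against 61.1, 75.9, 86.8 and 74.0 FPKM in Dll4+/+ 3 to 6. Its log2 fold change was -0.04 (SE 0.20). Dll4+/- libraries thus held both the highest and the lowest value, and Thra shares 5.70% of its exon bases with Nr1d1 on the opposite strand. Vdr, the vitamin D receptor, had 1.49, 1.17, 1.06 and 1.47 FPKM in Dll4+/- against 0.847, 1.08, 1.42 and 1.01 FPKM in Dll4+/+ lungs, with overlapping groups. Thrb averaged 1.06 ± 0.263 FPKM in Dll4+/- lungs, against 0.878 ± 0.272 FPKM in Dll4+/+ lungs, and Rora, a regulator of the circadian clock, 2.51 ± 0.451 FPKM in Dll4+/- lungs, against 2.21 ± 0.269 FPKM in Dll4+/+ lungs. Rorb, at 2 to 10 fragments a library, had an exact p of 0.0571.

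The lipid sensors were led by the liver X receptors, which bind oxidized cholesterol. Nr1h2 had 67.4, 41.6, 48.5 and 52.4 FPKM in Dll4+/- 1 to 4, against 39.8, 45.7, 53.6 and 46.1 FPKM in Dll4+/+ 3 to 6, with a log2 fold change of 0.16 (SE 0.16). Its paralog Nr1h3, found in macrophages, adipose tissue and liver, had 25.7, 23.0, 22.0 and 19.6 FPKM in Dll4+/-, against 27.3, 23.3, 22.8 and 23.2 FPKM in Dll4+/+ lungs. Dll4+/+ 3 was the high one in its group for Nr1h3 and the low one for Nr1h2. Among the PPARs, which sense fatty acids, Ppard led with 11.1 ± 2.54 FPKM in Dll4+/- lungs, against 9.92 ± 1.26 FPKM in Dll4+/+ lungs. Pparg, the adipocyte and alveolar macrophage regulator, was at 2.88 ± 0.428 FPKM in Dll4+/- lungs, against 2.58 ± 0.447 FPKM in Dll4+/+ lungs. Ppara, the fasting sensor of liver, was at 0.577 ± 0.205 FPKM in Dll4+/- lungs, against 0.452 ± 0.125 FPKM in Dll4+/+ lungs. The bile acid receptor Nr1h4 lay just under the test filter, at 0.526 to 1.18 FPKM in Dll4+/- and 0.85 to 1.14 FPKM in Dll4+/+ lungs, and Nr1i3 shares 74.9% of its exon bases with Tomm40l on the opposite strand.

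Nr2f1 (COUP-TFI; ENSMUSG00000069171, chromosome 13, 78188973 to 78199757, minus strand, GRCm38), an orphan receptor of mesenchymal and neural development, had the smallest p of the tested members. Its values were 2.88, 11.0, 10.4 and 4.27 FPKM in Dll4+/- 1 to 4, against 10.6, 10.7, 11.0 and 11.3 FPKM in Dll4+/+ 3 to 6. Only Dll4+/- 1 and Dll4+/- 4 were low, and the remaining 2 Dll4+/- libraries lay at 10.4 and 11.0 FPKM beside a Dll4+/+ mean of 10.9 ± 0.341 FPKM. The fitted change was -0.71 (SE 0.34) on the log2 scale, with an unadjusted p of 0.0621 and an adjusted p of 0.811 in limma, and the exact p was 0.114. Dll4+/- 1 and Dll4+/- 4 also had the lowest fibroblast marker sums, 1072 and 868 FPKM, against 1363 to 1750 FPKM in all other libraries, and the part of that in the Nr2f1 values was not tested. Without these 2 libraries the log2 fold change was -0.03.

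Nr2c2 (TR4) had the highest fitted fold change of the 21 tested members on the log2(FPKM + 1) scale, and this value turned on a single Dll4+/+ library. It had 2.86, 2.91, 4.35 and 2.04 FPKM in Dll4+/- 1 to 4, against 0.572, 2.67, 3.21 and 2.90 FPKM in Dll4+/+ 3 to 6. The value of Dll4+/+ 3 came from 78 fragments, against 357 to 644 fragments in the other libraries, and without it the log2 fold change of 0.34 (SE 0.31) was 0.01. On the annotation, 30.7% of the exon bases of Nr2c2 are shared with Mrps25 on the opposite strand. Its paralog Nr2c1 (TR2) had 6.55 ± 0.415 FPKM in Dll4+/- lungs, against 6.58 ± 0.356 FPKM in Dll4+/+ lungs. Nr2f6, which shares 54.4% of its exon bases with Ocel1, averaged 14.1 ± 3.79 FPKM in Dll4+/- lungs, against 15.4 ± 1.27 FPKM in Dll4+/+ lungs. Nr2e3, a photoreceptor gene, was detected by 1 fragment in Dll4+/- 1 and 2 fragments in Dll4+/+ 3, and Hnf4a, of liver and gut, by 1 fragment in each of 3 libraries.

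**Figure D4:**
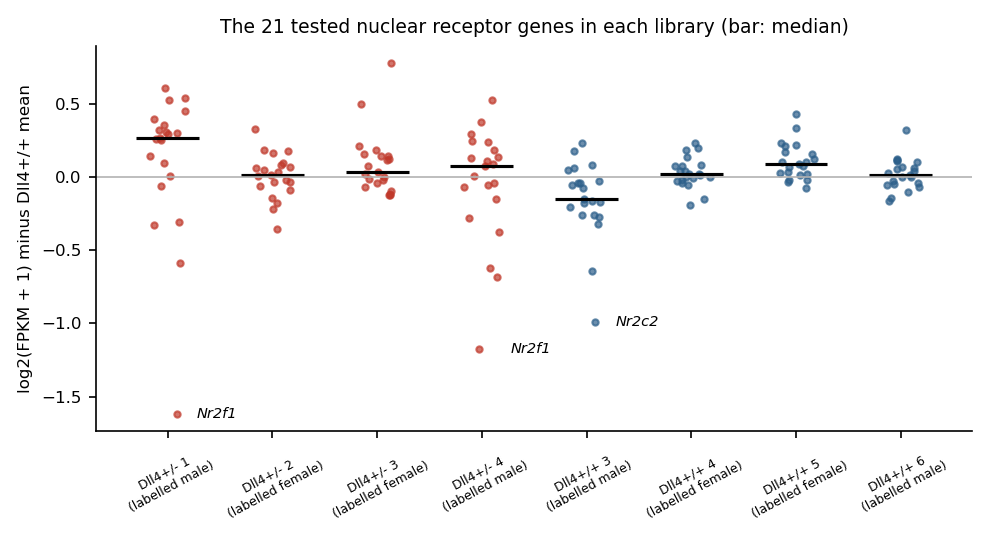
log2(FPKM + 1) of each of the 21 tested receptor genes in each library minus the Dll4+/+ mean of that gene, with the 4 Dll4+/- libraries in red at the left, the 4 Dll4+/+ libraries in blue at the right, and black bars for medians. The median was 0.27 in Dll4+/- 1 and -0.15 in Dll4+/+ 3 and between 0.01 and 0.09 in the other libraries; the labelled points are Nr2f1 in Dll4+/- 1 and 4 and Nr2c2 in Dll4+/+ 3.

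In the remaining groups, Nr6a1 (GCNF), a germ cell and embryonic receptor, had 1.40, 0.968, 1.22 and 1.76 FPKM in Dll4+/- 1 to 4, against 0.717, 0.949, 0.945 and 1.09 FPKM in Dll4+/+ 3 to 6. Only Dll4+/- 2 fell within the Dll4+/+ range, and the exact p was 0.0571, with a log2 fold change of 0.27 (SE 0.15). The immediate early receptors, which need no ligand and rise within minutes of a stimulus, varied widely within genotypes, Nr4a2 from 3.24 to 6.67 FPKM in Dll4+/- and 2.48 to 5.83 FPKM in Dll4+/+ lungs and Nr4a3 from 0.115 to 0.641 FPKM in Dll4+/- and 0.196 to 0.549 FPKM in Dll4+/+ lungs. Nr5a2, of liver and pancreas, stayed at 0.318 to 0.903 FPKM in Dll4+/- and 0.288 to 0.558 FPKM in Dll4+/+ lungs. Nr0b2, an orphan repressor induced by bile acids, was counted from 0 to 8 fragments a library. By position, 6 of the 41 members lie on chromosome 2 with Dll4, the nearest being Nr1h3 at 28.1 Mb from it, and the 4 of them that were tested had log2 fold changes from -0.09 to 0.27.

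Single libraries held many of the extreme values. Dll4+/- 1 held the highest of the 8 values for 11 of the 21 tested members, and the highest for 20.9% of all genes tested. Dll4+/+ 3 held the lowest value for 9 of the 21, and the lowest for 24.3% of all genes. The summed FPKM of the 41 members was 462, 384, 404 and 360 in Dll4+/- 1 to 4, against 354, 395, 417 and 388 in Dll4+/+ 3 to 6. With library weights in the fit, the median log2 fold change of the 21 members was -0.01 in place of 0.12.

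Within subfamilies, the shares of the paralogs did not separate the genotypes. Rara made up 40.2 ± 2.14% of the summed retinoic acid receptor FPKM in Dll4+/- and 37.8 ± 1.25% in Dll4+/+ lungs, and Rarg 57.0 ± 1.56% in Dll4+/- and 59.0 ± 1.67% in Dll4+/+ lungs (SD, n = 4 each, exact permutation p = 0.114 for both). Rxra and Rxrb were nearly balanced, with 48.1 ± 1.84% of the retinoid X receptor sum for Rxra in Dll4+/- and 48.4 ± 3.87% in Dll4+/+ lungs. Nr1h3 supplied 30.4 ± 3.89% of the liver X receptor sum in Dll4+/- and 34.4 ± 4.53% in Dll4+/+ lungs, and Thrb 1.53 ± 0.751% of the thyroid hormone receptor sum in Dll4+/- and 1.15 ± 0.294% in Dll4+/+ lungs. None of the 15 shares had an exact p below 0.05, the lowest being that of Esr2.

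The genotype difference of Nr2f1 was the 1 of 21 that differed between labelled sexes at an unadjusted p below 0.05, beside 7.61% of all genes for the same interaction term. In pups labelled female, Nr2f1 had a log2 fold change of -0.02 (SE 0.17), and in those labelled male one of -1.40 (SE 0.17). The interaction was 1.38 (SE 0.24), with a limma adjusted p of 0.518. The 2 Dll4+/- libraries labelled male are Dll4+/- 1 and Dll4+/- 4, which both stood apart, so that labelled sex and these libraries cannot be told apart. The library labelled female with Y-linked RNA, Dll4+/- 2, had 11.0 FPKM of Nr2f1, and without it the interaction was 1.34. With the other pseudocount and with the lower filter, the limma adjusted p of the interaction was 0.516 and 0.523. Leaving out any single library leaves 1 library in an arm, which the fit assumes to vary like the other groups. The interaction then ran from 1.16, without Dll4+/- 1, to 1.60, without Dll4+/- 4.

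The proteins that work with these receptors and the genes that answer to them were read from 11 lists, with 105 symbols of which 104 were found and 84 tested. None of the 84 passed at an adjusted p below 0.05, with 47 positive and 37 negative fold changes. At an unadjusted p below 0.05, 2 were higher and 1 lower, which is 3.57% of the 84, near the 3.36% of all genes. The count was 1 without Dll4+/- 1 and 1 without Dll4+/+ 4, where 2.67% and 1.93% of all genes were counted. It was 13 without Dll4+/- 2, 6 without Dll4+/- 3 and 5 without Dll4+/- 4, where 7.03%, 5.19% and 4.31% of all genes were counted. The 3 genes in the fit of all libraries were Fabp4, a PPAR target and lipid carrier of macrophages and capillary endothelium, Abca1, the liver X receptor target that exports cholesterol, and Hsd11b2, the enzyme that inactivates glucocorticoids.

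Fabp4 had 72.3, 16.1, 55.9 and 36.4 FPKM in Dll4+/- 1 to 4, against 18.6, 8.77, 15.1 and 14.5 FPKM in Dll4+/+ 3 to 6, and the fitted change was 1.45 (SE 0.41) on the log2 scale, with an adjusted p of 0.811 in limma. Brown fat markers summed to 18.5 FPKM in Dll4+/- 3 and to at most 2.03 FPKM elsewhere, and their part in the Fabp4 values was not tested. Abca1 had 11.2, 6.57, 7.89 and 5.0 FPKM in Dll4+/-, against 3.64, 4.69, 5.46 and 5.39 FPKM in Dll4+/+ lungs. Only Dll4+/- 4 overlapped the Dll4+/+ range, and the log2 fold change was 0.54 (SE 0.21). Hsd11b2 had 1.20, 6.02, 5.65 and 2.20 FPKM in Dll4+/-, against 7.96, 7.47, 6.81 and 5.62 FPKM in Dll4+/+ lungs, with a log2 fold change of -0.89 (SE 0.35). As with Nr2f1, its low values were those of Dll4+/- 1 and Dll4+/- 4.

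Of the lists that describe receptor machinery, the chaperones of steroid receptors had 8 of 8 negative fold changes with a median of -0.25, and none passed the test. The 2 of smallest p were the immunophilin Fkbp4, at 73.1 ± 18.6 FPKM in Dll4+/- lungs, against 88.6 ± 8.90 FPKM in Dll4+/+ lungs, and the co-chaperone Dnaja1, at 41.0 ± 12.0 FPKM in Dll4+/- lungs, against 49.2 ± 4.23 FPKM in Dll4+/+ lungs. Dll4+/- 1 was the lowest library for 6 of the 8, and without it their median was -0.08, and without both Dll4+/- 1 and Dll4+/- 4 it was 0.01. Coactivators had 7 positive and 3 negative fold changes of 10 tested, and corepressors 6 and 3 of 9. Prmt1 and Carm1, both arginine methyltransferases among the coactivators, were at -0.40 (SE 0.20) and 0.44 (SE 0.28) on the log2 scale, and the corepressor Ncor1 at 0.20 (SE 0.14). Of 5 tested nuclear receptors outside the 41, the venous regulator Nr2f2 and the immediate early receptor Nr4a1 had the smallest p, at -0.23 (SE 0.12) and -1.04 (SE 0.63).

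Genes of hormone supply and response did not pass the test either. In retinoid transport and metabolism 3 of 9 fold changes were positive and 6 negative, with Rbp4, the plasma carrier of retinol, at 6.6 ± 0.735 FPKM in Dll4+/- lungs, against 8.24 ± 1.56 FPKM in Dll4+/+ lungs, and Aldh1a2, which makes retinoic acid, at 4.33 ± 1.87 FPKM in Dll4+/- lungs, against 5.93 ± 0.598 FPKM in Dll4+/+ lungs. Of 5 steroid metabolism genes tested, 2 were positive and 3 negative, the sterol and estradiol enzyme Hsd17b7 being at -0.37 (SE 0.31). The thyroid hormone transporter Slc16a10 was at 0.24 (SE 0.14). Estrogen-responsive genes had 4 positive and 5 negative fold changes, including -0.53 (SE 0.26) for Igfbp4, which binds insulin-like growth factors, and 0.19 (SE 0.16) for the estrogen receptor cofactor Greb1. Igfbp4 was low only in Dll4+/- 1 and Dll4+/- 4, at 88.8 and 71.0 FPKM. Dll4+/- 2 and Dll4+/- 3, at 143 and 164 FPKM, lay within the Dll4+/+ range of 141 to 195 FPKM. PPAR-responsive genes had 9 of 11 positive fold changes, including 0.60 (SE 0.38) for the lipoprotein lipase gene Lpl, and Dll4+/- 1 was the highest library for 10 of the 11. Liver X receptor targets had 5 of 8, including 0.21 (SE 0.12) for the phospholipid enzyme gene Lpcat3.

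Glucocorticoid-responsive genes had 7 positive fold changes of 8 tested with a median of 0.61, and here too a single library set the values. Klf9, a repressor induced by glucocorticoids, had 31.6, 7.19, 10.7 and 4.93 FPKM in Dll4+/- 1 to 4, against 2.70, 6.02, 8.32 and 7.45 FPKM in Dll4+/+ 3 to 6, and Errfi1, an inhibitor of EGF receptor signalling, had 95.6, 31.2, 42.9 and 48.0 FPKM in Dll4+/- against 24.2, 36.6, 33.9 and 43.8 FPKM in Dll4+/+ lungs. Dll4+/- 1 held the highest value of 8 of the 9 listed genes, while it held the lowest value of the receptor gene Nr3c1. The HSP90 partner gene Fkbp5, chosen after its values were seen, was at 62.7 FPKM in Dll4+/- 1, against 5.87 to 6.55 FPKM in the other 7 libraries, and without that library the median of the list was 0.08.

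**Figure D5:**
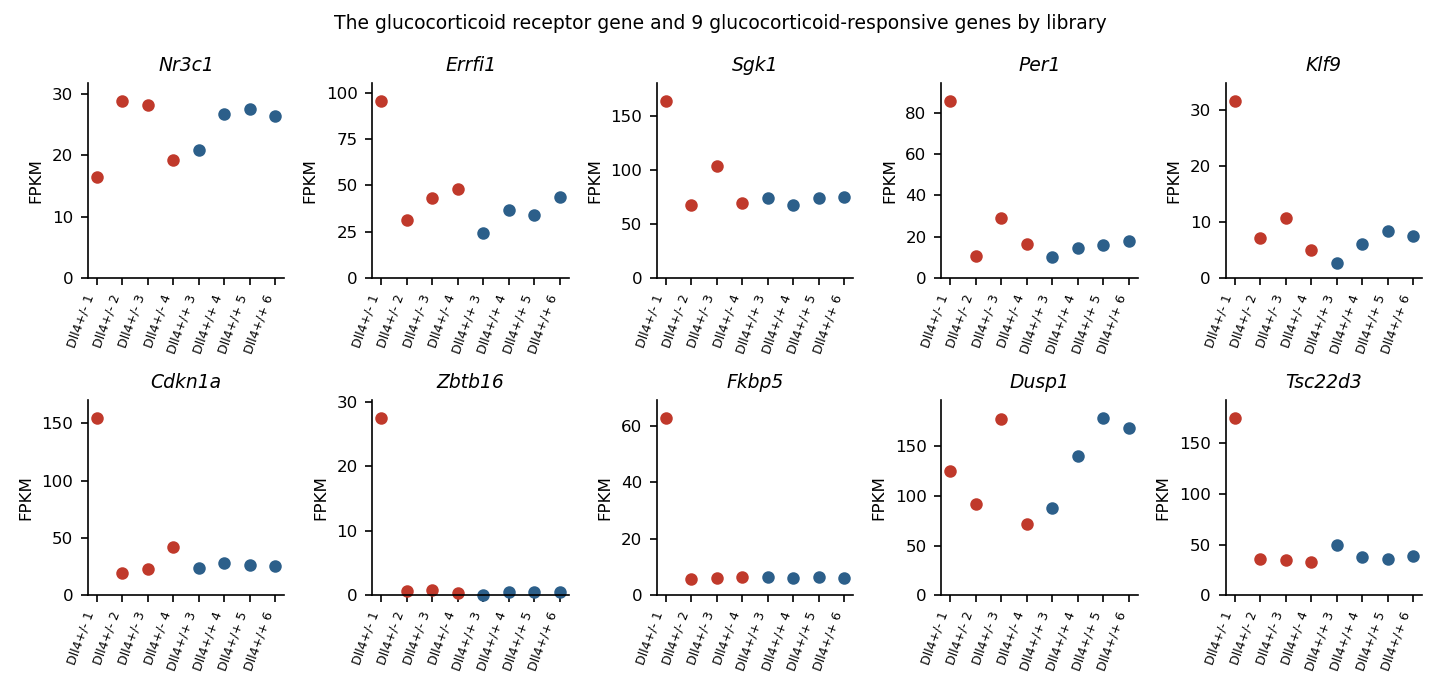
FPKM of the glucocorticoid receptor gene Nr3c1 and of the 9 listed glucocorticoid-responsive genes in each library, Dll4+/- in red and Dll4+/+ in blue, each panel with its own linear axis from 0. Dll4+/- 1 is the lowest library for Nr3c1 at 16.5 FPKM and the highest for 8 of the 9 other genes, with Fkbp5 at 62.7 FPKM beside 5.87 to 6.55 FPKM elsewhere.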

How the data were processed

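Whole right lungs of P6 pups were sequenced as poly-A libraries with paired ends. Values are FPKM, computed and deposited by the authors per gene and library. CASAVA, STAR and the build GRCm38.p4 are named, without versions, in the processing notes of the submitters, and for the counter, the annotation and the use of strand there is no entry in the sources used here. Of 10 samples, 8 have a column in the table, and Dll4+/+ 1 and 2 were not analysed here. Deposited group means, ratios, log2 fold changes and p-values of the authors' own comparison were not used. The entry 0.005, which stands in for 0 in 239 genes and in 0 of the members, was set to 0.

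The members and gene lists were chosen with earlier results of these data known. Gene symbols were matched exactly. Genes with 1 FPKM or more in at least 4 libraries were fitted with limma 3.58.1 in R 4.3.3 on log2(FPKM + 1) with a mean-variance trend, 4 Dll4+/- against 4 Dll4+/+ libraries, with Benjamini-Hochberg adjustment over all 13610 genes. On this scale the fold changes of low genes are understated. Single genes and paralog shares have a two-sided exact permutation p, computed in scipy 1.17.1. P-values measure the spread between these samples.

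Within a gene and library, FPKM moves in steps of 1 fragment. Fragments and library totals were recovered from these steps, and 100% of tested genes came out whole within 0.01, of which 1454 did so at their annotated length and 12156 at the smallest length that gave whole numbers. Poisson intervals and voom used these fragments, and intervals cover counting error only. The recovery and the fits were tested on simulated data. Exon overlaps were read from GENCODE M21 on GRCm38 and promoters from RefSeq on GRCm38.p6, which had windows for 38 of the 41 members.

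Values per library are given for Esr1, Esr2, the 8 tested members of smallest p, the 6 of highest Dll4+/+ mean, members with separate groups, members singled out in the closing section, and the 2 genes of smallest p in each list, of which some are not reported here. Values of further members were added where they complete a subfamily. Alternatives were another pseudocount, other filters, median scaling, library weights, voom, labelled sex, the replicate block, 0.005 kept, and leaving out libraries. The voom fit at the lower filter and the counts of separate groups without single libraries were added after seeing the data.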

Additional observations from a re-analysis of the deposited data

Results flagged for a closer look

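Among the 39 detected members, 6 of 78 sets of 4 libraries of 1 genotype (7.69%) had a single value far from the others by Dixon's criterion, and chance gives about 1 in 20. In 3 of the 6 the other libraries were all at 0, so that any fragment meets the criterion. Rxra was low in Dll4+/+ 3, at 24.2 FPKM, with 30.6 to 31.7 FPKM in the other Dll4+/+ lungs. Nr1h3 was high in the same library, at 27.3 FPKM, with 22.8 to 23.3 FPKM in the others. Rara was high in Dll4+/+ 5, at 29.2 FPKM, with 26.6 to 27.0 FPKM in the others. Nr2e3 stood out at 0.0188 FPKM in Dll4+/- 1 and at 0.0417 FPKM in Dll4+/+ 3, and Hnf4a at 0.0118 FPKM in Dll4+/- 3, each being 1 or 2 fragments beside libraries at 0.

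The genotype difference of Nr2f1 had an interaction with labelled sex of 1.38 on the log2 scale (female minus male), which did not pass the test (limma adjusted p = 0.518). It was the 1 of 21 members at an unadjusted p below 0.05, beside 7.61% of all genes. Both male-labelled Dll4+/- libraries were libraries that stood apart, so that labelled sex and library cannot be told apart. Dll4+/- 2, labelled female but with Y-linked RNA, did not stand apart. Its Nr2f1 value of 11.0 FPKM lay within the Dll4+/+ range of 10.6 to 11.3 FPKM.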

How the results depend on the processing

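No nuclear receptor gene had an adjusted p below 0.05 between genotypes under any alternative run. Over all genes, that count was 3 with library weights. The count at an unadjusted p, 457, was 933 with no filter, 701 with the filter of 0.1 FPKM, 775 with library weights and 230 to 957 without single libraries. Among members that count, 0, was 1 with no filter or the filter of 0.1 FPKM (Esr2), 1 with labelled sex as covariate (Nr2f1), 2 with voom at the filter of 0.1 FPKM (Esr2 and Nr2f1) and 0 to 2 without single libraries.

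The exact test counted 1 of 39 members, and 1 to 5 without single libraries. The 5 were counted without Dll4+/- 2 and included Esrrb, at 2 to 10 fragments a library. Without Dll4+/- 1 and 4 the count was 0, where the exact test cannot reach the threshold. The share of all genes counted by the exact test was not computed. Members with separate groups numbered 1, beside 3.08% of all genes past 0.1 FPKM. They numbered 1 to 4 without single libraries, beside 4.62% to 8.88%. Without Dll4+/- 1 and 4 they numbered 2 (Esr2, lower in Dll4+/-, and Nr3c1, higher in Dll4+/-), beside 16.5%. The Esr2 difference was -0.402 FPKM, -0.437 to -0.372 without single libraries and -0.413 (exact p = 0.0667) without Dll4+/- 1 and 4. Paralog shares with p below 0.05 numbered 0, and 0 to 1 without single libraries. Interactions at an unadjusted p numbered 1, 2 at the filter of 0.1 FPKM and 1 to 7 without single libraries, and at an adjusted p 0, and 0 to 2 (2 without Dll4+/- 4, Nr2f1 and Ppard). Without a single library, the interaction fit has 1 library in an arm, and the share of all genes was not computed for it. The interaction counts without single libraries therefore cannot show a gain for the members over all genes. List genes at an unadjusted p numbered 3, and 1 to 13 without single libraries.

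Some fold changes near 0 changed sign. With library weights Rxra was -0.0055, Nr1h2 -0.067 and Rarg -0.069, and the members' median was -0.0055. Without Dll4+/- 1 and 4, Nr1h2 was -0.036, Thra 0.10 and Rarg -0.078. The retinoid transport median, -0.27, was -0.071 there, with the same sign. Without single libraries Thra ran from -0.14 to 0.16 and Rarg from -0.049 to 0.12. The cause was not tested.

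Replicate numbers 3 and 4 occur in both genotypes, and same-numbered libraries, from separate pups, did not deviate together (r = -0.23 and -0.06 across genes). With the replicate block, only these 4 libraries inform the genotype difference, and little is left to measure the spread. In that fit 16 genes and 0 members had an adjusted p below 0.05, a count that cannot show a gain from pairing, and Rarg was -0.061.

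Depth limits the 20 members under the test filter, which rest on 0 to 76 fragments a library.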
